A study of Mus musculus with 20 samples.

Results

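The miR-297, miR-466, miR-467 and miR-669 families are rodent microRNA families whose hairpins are packed into an intron of Sfmbt2. Their levels were followed while mouse embryonic stem cells (ESCs) of a female and a male line were turned into epiblast stem cells (EpiSCs). Members were taken by name, as every mature miRNA whose name starts mmu-miR-297, mmu-miR-466, mmu-miR-467 or mmu-miR-669 and that has a row in the count tables of both lines. This gave 77 rows of 1063 shared by both tables: 6 of miR-297, 30 of miR-466, 12 of miR-467 and 29 of miR-669. A further name, miR-669n, had a row in the female table only, with 0 counts, and was left out.

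Sfmbt2 encodes a Polycomb group protein and is an imprinted gene expressed from the paternal allele in early embryonic and extra-embryonic tissue. Its miRNA cluster arose by tandem duplication, so that many of its hairpins are near copies of each other. A miRNA hairpin is cleaved into a 5p and a 3p strand, and the strand loaded into an Argonaute protein recognises its targets mainly through the seed, bases 2 to 8. ESCs kept in 2i medium, which holds inhibitors of Mek and Gsk3, are in a naive state, and EpiSCs are in a primed state that resembles the epiblast after implantation.

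Small RNA was counted in 20 libraries: 10 of the female line PGK and 10 of the male line E14. Day 0 cells grew in 2i medium, and all other groups were moved to N2B27 medium with Activin A and Fgf2 on fibronectin. In each line the groups were day 0, day 4, day 10, days 19 to 23 (days 23 and 21 in the female line, 21 and 19 in the male line) and days 27 to 30 (day 29 for both female samples, 27 and 30 in the male line). Each group held 2 libraries, from differentiation experiments 2 and 3, and libraries are named below in that order. No genetic change or other agent was named for any group. With a single line of each sex, an effect of sex cannot be told apart from one of the line, and p-values measure the spread between the experiments of these lines. In both lines the day 0 sample of experiment 3 carried a cell-type label of differentiating cells, while its title and day label gave day 0, and it was grouped by day.

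Library totals ranged from 7112398 to 18031067 counts. The naive markers of the miR-290 to miR-295 cluster took 19.9 to 28.99% of counts at day 0 and 11.6 to 14.7% at days 27 to 30, while the primed markers miR-302 and miR-367 took 0.0141 to 0.0520% and 1.42 to 3.53%. The day 0 samples of experiment 3 lay at 28.99 and 28.3% for the naive markers and at 0.0165 and 0.0520% for the primed ones. Fibroblast markers (miR-199a-3p, miR-199a-5p, miR-214-3p, miR-143-3p and miR-145a-5p) took 0.289 to 0.738% of counts at day 0, 0.0356 to 0.122% at day 4 and 0.0484 to 0.420% later. Of their counts 88.8% came from miR-143-3p, and miR-214-3p had 0 counts in all 8 libraries of days 0 and 4.

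The GENCODE annotation of GRCm38 placed 71 member hairpins inside Sfmbt2 (chr2:10370510-10595253, plus strand). They lay between 10466663 and 10518279, a stretch of 51617 bp within 1 intron (10461473 to 10523944), which is intron 10 or 11 of the gene depending on the transcript. No annotated transcript of the gene had an exon in that stretch. By hairpin name, 64 rows had all their copies in Sfmbt2, 5 rows (those of miR-297a and miR-466f) had some copies there and 1 elsewhere, and 6 rows had no copy there. The remaining 2 rows, miR-466a-5p and miR-466a-3p, matched no hairpin by name. Another 48 hairpins in the gene, among them Mir466, had no row of their name in the tables. No miRNA outside the 4 families could therefore be listed for the gene.

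RefSeq mature sequences (GRCm38.p6) were matched for 6 members, which were the 6 with no copy in Sfmbt2. They are shown as the members outside the intronic cluster, whose counts follow. Capitals mark the seed. The other miRNA is a non-member that holds the seed of miR-467h.
miR-466q (chr3:28419988-28420007, plus strand): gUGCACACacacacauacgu
miR-466k (chr3:85467396-85467418, plus strand): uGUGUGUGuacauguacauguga
miR-467h (chr9:115381898-115381919, plus strand): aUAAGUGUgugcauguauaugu
miR-466j (chr10:60960802-60960824, plus strand): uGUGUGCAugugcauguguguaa
miR-467f (chr11:69635419-69635439, minus strand): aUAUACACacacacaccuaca
miR-466i-3p (chr13:17747552-17747573, plus strand): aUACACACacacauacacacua
miR-668-5p (chr12:109734733-109734756, plus strand): gUAAGUGUgccucgggugagcaug

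These 6 members hold long runs in which purines and pyrimidines alternate, from 16 of 21 bases in miR-467f to all 20 in miR-466q, while the longest such run of miR-668-5p was 6 bases. No seed was shared among the 6. Over all 20 libraries miR-466k had 51 counts, miR-466q 7, miR-467h 5, miR-467f 3 and miR-466i-3p 1. miR-466j had 0 of 2.21e+08 counts, which allows up to 0.0136 CPM (counts per 1000000 counts of a library; 3 counts over all libraries, counting error only). Together these 6 rows gave 67 of the 507988 counts of the families, or 0.0132%, against 97.2% from rows with every copy in Sfmbt2. The non-member with the seed of miR-467h had 138 counts.

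Within the cluster, several rows were not separate measurements. For 9 groups of rows, 22 rows in all, the ratio between the rows stayed the same in all 20 libraries to a closeness far below counting noise (a chi-square of no more than 0.00597 per degree of freedom, against 0.2397 or more for every other pair of the 51 rows with at least 300 counts). miR-467a-5p held 10.1 times the counts of miR-467b-5p, with a range from 9.98 to 10.1 over the libraries, and the annotation gives 10 hairpins for miR-467a and 1 for miR-467b. The ratio was 10.0 for miR-467a-3p and miR-467d-3p (10 hairpins and 1), 11.0 for miR-669a-3p and miR-669o-3p (12 and 1) and 6.0 for miR-669a-5p and miR-669p-5p (12 and 2). The miR-466 3p rows formed the largest group, in which miR-466b-3p, miR-466c-3p, miR-466a-3p, miR-466e-3p and miR-466p-3p stood at 7.84, 2.0, 1.0, 1.0 and 1. The 3p rows of miR-297a, miR-297b and miR-297c stood at 1.99, 1 and 1. The ratios did not all follow the hairpins: miR-466c has 3 at a ratio of 2.0, miR-297a 4 at 1.99, and miR-466f-5p and miR-466f have 4 each at a ratio of 2.98. Changes in such rows are the same measurement, so a count of rows can count a signal more than once. Counted once per group, the calls given below at later stages against day 0 were 3, 2 and 3 signals in the female line from day 10 on, and 4 in the male line at day 10. The sources used here do not say how reads that fit several copies were assigned.

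The families together took 0.0411 to 0.447% of the counts of a library. miR-467 gave 43.4% of their counts, miR-669 30.1%, miR-466 25.01% and miR-297 1.47%, and 5p rows gave 73.3%. The 5 most abundant rows gave 58.8%: miR-467a-5p, miR-669a-5p, miR-467c-5p, miR-466b-3p and miR-467d-5p. The first of these, miR-467a-5p, averaged 319 CPM (here and below scaled by edgeR's TMM factors) and ranked 189 among the 1063 rows. Of the miR-297 rows, miR-297a-5p averaged 11.3 CPM and miR-297b-5p 9.48 CPM. Of the 77 rows 5 had 0 counts in all libraries (miR-466j, miR-669c-3p, miR-669h-3p, miR-669i and miR-669j). The filter on low counts passed 56 rows, which were tested, and the 21 others had at most 96 counts each over the 20 libraries. Counting fixed-ratio groups once, the 56 rows were at most 43 distinct signals, since tested rows with fewer than 300 counts were not compared.

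Of all stages, male day 4 had the most calls against day 0, all of them lower, and the sums of all 4 families were lower. The miR-467 sum was 1849 and 1479.6 CPM at day 0 and 244 and 383 CPM at day 4. The miR-669 sum went from 1148 and 922 CPM to 137 and 237 CPM. The miR-466 sum went from 734 and 447 CPM to 208 and 241 CPM, and the miR-297 sum from 50.5 and 40.0 CPM to 7.57 and 14.8 CPM. In each family both day 4 libraries lay below both day 0 libraries. All 4 families together went from 3335 ± 632 CPM to 736 ± 198 CPM (SD, n = 2), a ratio of 4.53 between the means. As a share of all counts this was 0.306 and 0.257% at day 0 and 0.0411 and 0.0888% at day 4. Within experiment 2 the log2 ratio was -2.66 and within experiment 3 it was -1.72.

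**Figure D1:**
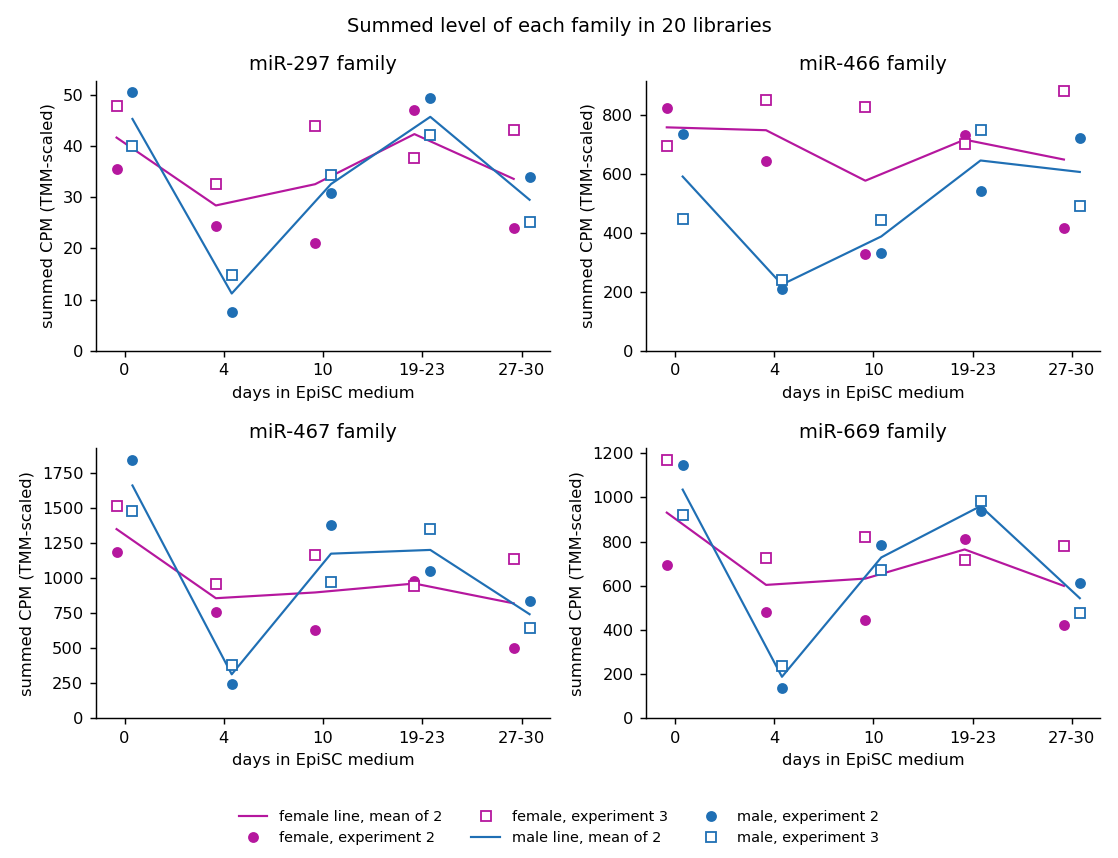
Summed TMM-scaled CPM of each family (y axis, from 0) against days in EpiSC medium (x axis), with 1 point per library, filled circles for experiment 2, open squares for experiment 3, and lines through the means of 2. In the male line all 4 families are lowest at day 4 (miR-467 at 244 and 383 CPM), while the female day 4 libraries of miR-467 stand at 759 and 957 CPM.

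Row by row, 43 of the 56 tested rows fell in the male line at day 4 and none rose (edgeR quasi-likelihood F test, Benjamini-Hochberg adjusted p under 0.05). This is 76.8% of the rows tested, while 18.3% of all 813 tested miRNAs were called lower in that comparison. The latter share includes the families, which gave 43 of the 149 lower calls. Counted once per fixed-ratio group, 35 of 43 signals fell. The median log2 change of the 56 rows was -2.14, that of all tested miRNAs 0.09, and all 56 fitted values were below 0. By family the fall was called for 6 of 6 rows of miR-297, 12 of 22 of miR-466, 8 of 9 of miR-467 and 17 of 19 of miR-669, with medians of -2.14, -1.69, -2.18 and -2.34. Without the day 4 library of experiment 2, the lower of the pair in each family, 23 rows were called. Without the day 0 library of experiment 3, whose label is in doubt, 45 were called.

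The largest fall among rows of at least 10 CPM was that of miR-669h-5p, from the hairpin at the far end of the cluster (chr2:10518155-10518279). It stood at 34.0 and 26.2 CPM at day 0 and at 2.16 and 2.78 CPM at day 4, a log2 change of -3.60 (SE 0.57, adjusted p 0.000237, edgeR). miR-467e-5p (chr2:10505721-10505807) fell from 202 and 213 CPM to 19.4 and 29.01 CPM, a log2 change of -3.10 (SE 0.52, adjusted p 0.00039, edgeR). miR-669f-3p (chr2:10467229-10467349), at the near end, fell from 19.1 and 13.3 CPM to 1.67 and 2.45 CPM (log2 -2.97, SE 0.48, adjusted p 0.000273, edgeR). In all 3 the day 4 libraries lay far below those of day 0.

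The most abundant rows of each family moved the same way at different sizes. miR-467a-5p stood at 632 and 392 CPM at day 0 and at 77.8 and 148 CPM at day 4 (log2 -2.18, SE 0.45, adjusted p 0.00176, edgeR). miR-467d-5p, from 1 hairpin, went from 528 and 505 CPM to 74.4 and 76.5 CPM (log2 -2.78, SE 0.49), and miR-467c-5p from 340.3 and 221 CPM to 57.2 and 90.7 CPM (log2 -1.92, SE 0.50). Both passed the test. miR-669a-5p went from 476 and 349.7 CPM to 57.9 and 106 CPM, with a log2 change of -2.34 (SE 0.45). miR-669a-3p changed by -2.77 (SE 0.48) and miR-669l-5p by -2.24 (SE 0.46) on the log2 scale, both called. Of miR-297, miR-297a-5p went from 17.5 and 11.0 CPM to 2.75 and 4.67 CPM (log2 -1.94, SE 0.50, called), and miR-297a-3p and miR-297b-5p were called at -2.18 and -1.83.

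The abundant miR-466 3p rows were the main exception to the call, though not to the sign. miR-466b-3p stood at 289 and 179.8 CPM at day 0 and at 96.8 and 97.6 CPM at day 4. Its log2 change of -1.27 (SE 0.51) had an adjusted p of 0.0544 (edgeR), and miR-466c-3p, which keeps a fixed ratio to it, had -1.26 and 0.0575. The smallest change was that of miR-466n-3p, chosen here after its value was seen, with 20.0 and 11.2 CPM at day 0 and 8.26 and 11.9 CPM at day 4, where the groups overlap. The 5p rows of the same family did pass in most cases, as for miR-466b-5p with 57.4 and 33.1 CPM at day 0 and 10.0 and 20.3 CPM at day 4 (log2 -1.57, SE 0.51, adjusted p 0.0203, edgeR). Over all families 27 of 28 tested 5p rows and 15 of 25 tested 3p rows were called. The median log2 changes were close, at -2.18 for the 5p rows and -2.14 for the 3p rows. The tested 3p rows were less abundant, with a median of 6.76 CPM against 16.7 CPM, and a difference between the strands was not tested.

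The fibroblast markers fell with the families in the male line at day 4, where 4 of the 4 detected markers were called lower, with log2 changes from -3.56 to -2.24. Their summed share went from 0.555 and 0.289% to 0.0395 and 0.0356%. In the female line their share also went from 0.738 and 0.318% to 0.122 and 0.0496%, with 2 of 4 markers called lower (miR-143-3p and miR-145a-5p). The others, miR-199a-3p and miR-199a-5p, had female log2 changes of 0.43 and 0.31, which were not called. The part of other cells in the fall of the families was not tested. In bulk samples fewer cells of a type and less RNA per cell cannot be told apart.

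**Figure D2:**
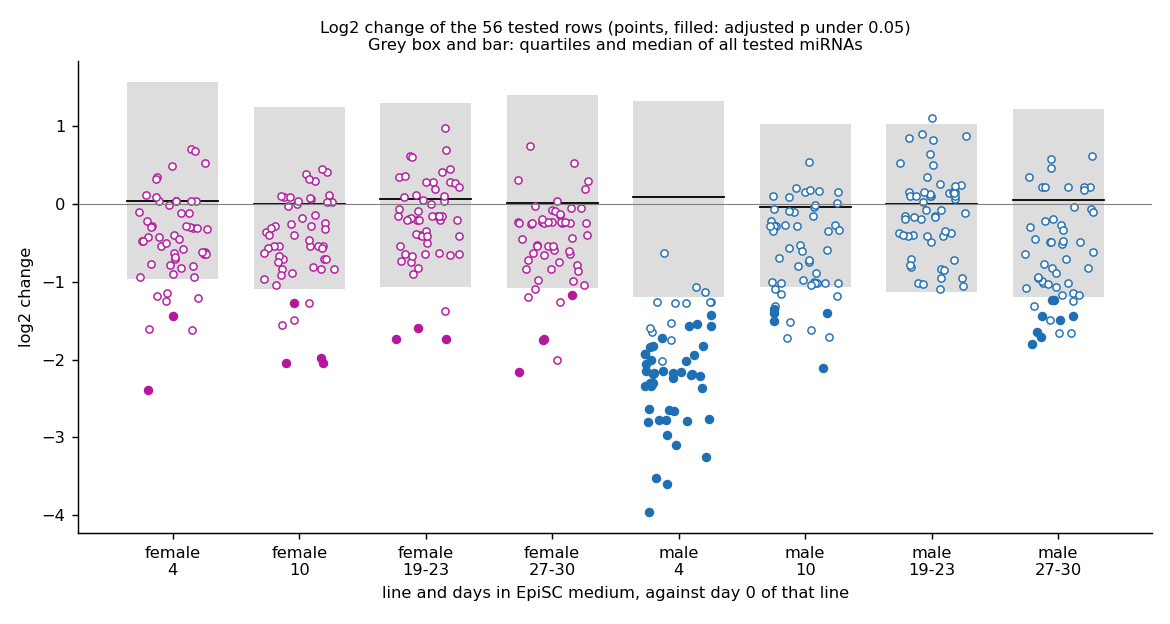
Log2 change against day 0 of the same line (y axis) for the 56 tested rows at each stage (x axis), female line in magenta and male line in blue, with filled points for rows with an adjusted p under 0.05 and a grey box with a bar for the quartiles and median of all 813 tested miRNAs. Male day 4 is the column in which 43 of 56 points are filled and all lie below 0. In the other columns between 0 and 8 are filled.

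In the female line fewer rows were called at day 4 after the same switch of medium. The sum of all families was 2737 and 3427 CPM at day 0 and 1908 and 2567 CPM at day 4, a log2 ratio of -0.46 with no overlap between the pairs. miR-467 went from 1188 and 1516 CPM to 759 and 957 CPM, and miR-669 from 692 and 1169.98 CPM to 481 and 726 CPM, where the libraries overlap. miR-466 stood at 822 and 693 CPM at day 0 and at 644 and 851 CPM at day 4, also overlapping. Only 2 of the 56 rows were called, both lower, which is 3.57% where 14.6% of all tested miRNAs were called lower. The median was -0.44, against 0.03 for all tested miRNAs. The day 4 library of experiment 2 had the lowest TMM factor, 0.551. With plain library totals the medians were -0.65 and -0.20. miR-669h-5p fell from 14.4 and 41.3 CPM to 5.09 and 5.52 CPM (log2 -2.39, SE 0.54, adjusted p 0.00268, edgeR), and miR-669f-3p from 12.0 and 11.1 CPM to 5.32 and 3.16 CPM (log2 -1.44, SE 0.45, adjusted p 0.0197, edgeR). Both are also among the 3 rows named above for the male line. Without the female day 4 library of experiment 3 only 1 call was left.

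The difference between the lines was tested on its own, and the contrasts at day 4 were added after the data were seen. At day 0 no row of the families differed between the lines, with 0 at an unadjusted p under 0.05 and 0 by DESeq2, where 8.73% of all tested miRNAs differed. At day 4, 4 rows were higher in the female line (miR-669a-5p, miR-669l-5p, miR-669o-5p and miR-669p-5p, 3 distinct signals), where 4.67% of all tested miRNAs were. miR-669a-5p stood at 226 and 335 CPM in the female line and at 57.9 and 106 CPM in the male line (log2 1.78, SE 0.44, adjusted p 0.0296, edgeR). The median over the 56 rows was 1.65, with all 56 above 0 and 48 at an unadjusted p under 0.05. These calls were not stable: 10 rows were called under RLE scaling, 13 with the experiment as a block, 24 by DESeq2, 0 with plain library totals and 0 when any 1 of the 4 libraries was left out.

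The interaction of line and day, which asks whether the day 4 change itself differed between the lines, called 0 of the 56 rows and 0% of all 813 miRNAs, both by edgeR and, for the rows, by DESeq2. It had 24 rows at an unadjusted p under 0.05 and a median of 1.60 on the log2 scale, so a difference between the lines in the size of the fall was not called for any row with 2 libraries per group. The 56 interaction values ranged from 0.87 to 3.15.

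**Figure D3:**
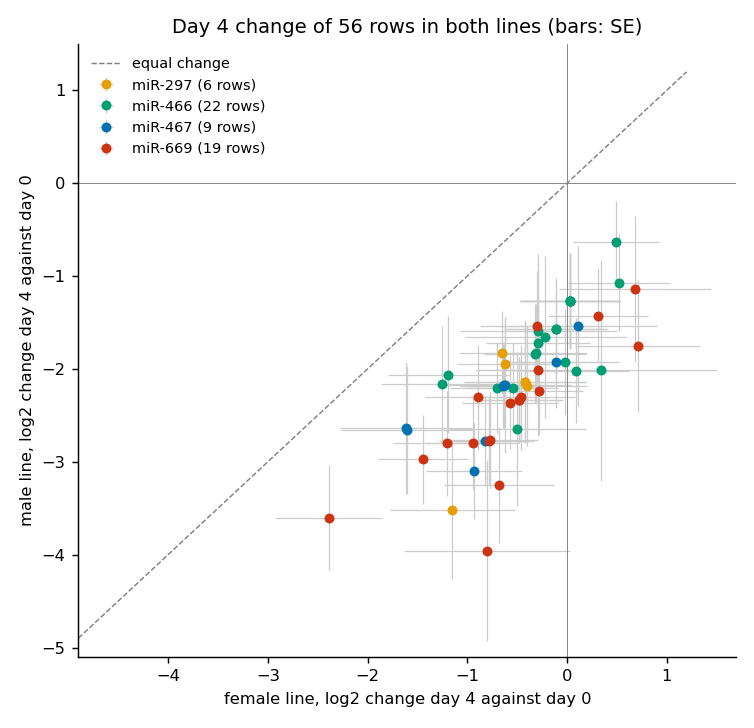
Log2 change at day 4 against day 0 in the female line (x axis) and in the male line (y axis) for the 56 tested rows, coloured by family, with bars for the SE and a dashed line of equal change. All points lie below the dashed line, with miR-669h-5p at the lower left (-2.39 and -3.60).

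By day 10 many male rows were higher again than at day 4, most of them 5p rows. The sum of all families was 2527 and 2121 CPM, against 596 and 876 CPM at day 4. Day 10 against day 4 in the male line was a contrast added after the data were seen. In it 23 of 56 rows rose and none fell, 20 distinct signals of 43. Of all tested miRNAs 4.55% rose, a share that includes the families, which gave 23 of the 37 rises. Of the 5p rows 21 of 28 rose, and of the 3p rows 2 of 25 (miR-669f-3p and miR-669a-3-3p). The 3p rows were the less abundant ones, with a median of 6.76 CPM against 16.7 CPM. Among rows averaging at least 10 CPM, 17 of 21 5p rows and 0 of 9 3p rows were called. These 9 rows were 5 distinct signals, since 5 of them are the fixed-ratio group of miR-466b-3p, and their log2 changes ran from 0.25 in that group to 1.37 in miR-669a-3p. Over all tested rows the median was 1.98 for the 28 5p rows and 0.94 for the 25 3p rows. The difference between the strands was not tested. This count rests on few libraries: 0 rows were called without the day 4 or the day 10 library of experiment 2, 15 without the day 4 library of experiment 3, and 2 with plain library totals.

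The rows that rose included miR-669l-5p, from 14.3 and 23.9 CPM at day 4 to 85.1 and 84.4 CPM at day 10 (log2 2.15, SE 0.46, adjusted p 0.0216, edgeR). miR-467a-5p went from 77.8 and 148 CPM to 482 and 359 CPM, and miR-669a-5p from 57.9 and 106 CPM to 360.2 and 290.4 CPM, both called. miR-466b-3p, the abundant 3p row, stood at 84.6 and 146 CPM at day 10 against 96.8 and 97.6 CPM at day 4, a change of 0.25 (SE 0.50) on the log2 scale that did not pass. The ratio of 5p to 3p counts over all families was 3.49 ± 0.07 at day 0, 2.19 ± 0.52 at day 4 and 6.04 ± 2.53 at day 10 in the male line (SD, n = 2). Its values at day 10 were 7.84 and 4.25, both above the day 0 pair of 3.54 and 3.44. This pooled ratio also depends on the mix of families. From day 0 to day 4 the mean male ratio fell in miR-466 (0.344 to 0.245). It rose in miR-297 (1.78 to 2.31), miR-467 (16.7 to 23.4) and miR-669 (4.28 to 5.01), where the libraries of the 2 stages overlap. The day 10 means were 3.09 (miR-297), 0.721 (miR-466), 43.2 (miR-467) and 8.17 (miR-669).

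Against day 0, the male line at day 10 had 5 rows lower and none higher, where 17.0% of all tested miRNAs were lower. All 5 were 3p rows: miR-669a-3p, miR-669o-3p and miR-669f-3p, and miR-466d-3p and miR-466f-3p. miR-669a-3p stood at 56.6 and 51.3 CPM against 139 and 147 CPM at day 0 (log2 -1.40, SE 0.46, adjusted p 0.0296, edgeR). The count was 0 without either day 10 library, 1 without the day 0 library of experiment 2 and 2 without that of experiment 3. At days 19 to 23 no male row was called, where 18.5% of all tested miRNAs were lower. There were 3 rows at an unadjusted p under 0.05, and DESeq2 called 1, higher. The sum was then 2576 and 3133 CPM, overlapping the day 0 pair of 3782 and 2888 CPM.

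**Figure D4:**
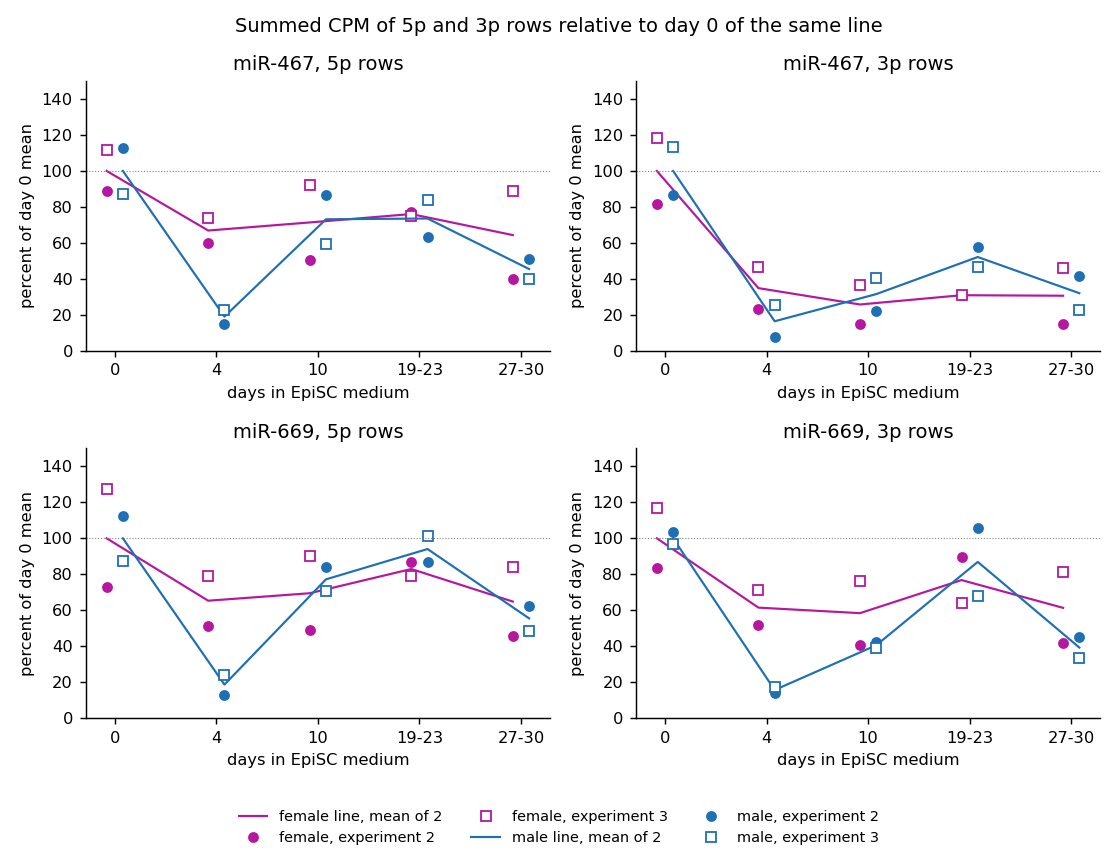
Summed CPM of 5p rows (left) and 3p rows (right) of miR-467 and miR-669, as percent of the day 0 mean of the same line (y axis, from 0), against days in EpiSC medium (x axis), with 1 point per library and lines through the means of 2. The male 5p sums of both families are higher at day 10 than at day 4. In TMM-scaled CPM, the 3p sum of miR-467 is below both day 0 values of its line at all later stages.

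In TMM-scaled CPM, the sums of the miR-467 3p rows were lower than at day 0 in every later library of either line. With plain library totals this did not hold: in male experiment 2 the sum at days 19 to 23 lay above that at day 0. In the female line the scaled sums stood at 118 and 171 CPM at day 0 and 33.5 and 67.2 CPM at day 4. They were 21.3 and 53.2 CPM at day 10, 44.8 and 44.6 CPM at days 19 to 23 and 21.7 and 66.8 CPM at days 27 to 30. The ratio of 5p to 3p counts in this family was 9.05 and 7.87 at day 0 and between 13.2 and 28.7 in all later female libraries. The male line did not show this separation. Its ratio was 21.02 and 12.44 at day 0 and between 14.66 and 62.80 later. Only the male day 10 pair lay above both day 0 values, and the pairs of the other stages overlapped them. miR-467a-3p gives most of the miR-467 3p counts. In the female line it stood at 102 and 149 CPM at day 0 and at 17.6 and 43.2 CPM at day 10 (log2 -2.05, SE 0.67, adjusted p 0.0253, edgeR). It was called lower again at days 19 to 23 (-1.73, adjusted p 0.049, edgeR) and at days 27 to 30 (-1.74, adjusted p 0.0453, edgeR). miR-467d-3p was called with it each time and is the same signal by its fixed ratio.

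The female counts at the later stages were small. At day 10, 4 rows fell (miR-467a-3p, miR-467d-3p, miR-669f-3p and miR-669h-5p), where 18.8% of all tested miRNAs did. At days 19 to 23, 3 of these fell, all but miR-669f-3p, where 19.3% of all tested miRNAs did. None rose at either stage. Without the day 0 library of experiment 3, whose label is in doubt, 0 rows were called at any of these female stages, days 27 to 30 included, while 2 were called at day 4. Without the day 0 library of experiment 2, 1 row was called at days 19 to 23 and 2 at days 27 to 30. Leaving out the experiment 2 library of the stage itself gave 0 calls at day 10, 1 at days 19 to 23 and 0 at days 27 to 30.

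At days 27 to 30 no tested row was called higher than at day 0 in either line. In the female line 4 rows fell, where 19.4% of all tested miRNAs fell: miR-669h-5p, miR-467a-3p, miR-467d-3p and miR-669f-3p. miR-669h-5p stood at 4.72 and 7.74 CPM (log2 -2.15, SE 0.53, adjusted p 0.00407, edgeR), and miR-669f-3p at 3.80 and 6.38 CPM (log2 -1.18, SE 0.44, adjusted p 0.0436, edgeR). In the male line 8 rows fell and none rose (14.3% of those tested, 6 distinct signals), where 21.2% of all tested miRNAs fell. The share of rows called was thus below that of all tested miRNAs in both lines. Their median log2 change was nonetheless lower: -0.42 in the female line and -0.80 in the male line. The medians of all tested miRNAs were 0.01 and 0.05.

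The male falls at days 27 to 30 were led by miR-669h-5p, at 7.33 and 9.91 CPM (log2 -1.80, SE 0.52, adjusted p 0.0137, edgeR). miR-467d-5p stood at 171 and 145 CPM against 528 and 505 CPM at day 0 (log2 -1.71, SE 0.47, adjusted p 0.0103, edgeR). miR-669f-3p stood at 5.88 and 4.47 CPM (log2 -1.64, SE 0.44), miR-467e-5p at 80.6 and 67.3 CPM (log2 -1.49, SE 0.49) and miR-669a-3p at 60.7 and 44.9 CPM (log2 -1.44, SE 0.46), and these 3 passed the test. miR-467a-5p, miR-467b-5p and miR-669o-3p made up the 8. No male row of miR-297 or miR-466 was called. Without the day 0 library of experiment 3 the count was 7, and without that of experiment 2 it was 3. It was 2 without the library of experiment 2 at days 27 to 30, 0 without that of experiment 3, and 0 with plain library totals, which moved the median of all tested miRNAs from 0.05 to 0.71.

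The sums at days 27 to 30 differed among the families. In the male line miR-467 stood at 839 and 648 CPM, below both day 0 libraries (log2 ratio -1.16), and miR-669 at 612 and 475 CPM (-0.93), also below. miR-466 stood at 723 and 489 CPM, overlapping its day 0 pair of 734 and 447 CPM (0.04). miR-466b-3p, its main row, was at 330.3 and 216 CPM against 289 and 179.8 CPM. In the female line the library of experiment 2 lay below that of experiment 3 in every family, as for miR-467 at 503 and 1139.5 CPM and miR-466 at 416 and 881 CPM. Between the lines 0 of the 56 rows and 0% of all 813 miRNAs differed at days 27 to 30, with 0 rows at an unadjusted p under 0.05 and 0 by DESeq2. The interaction of line and days 27 to 30 called 0 rows, again with 0 at an unadjusted p under 0.05 and 0 by DESeq2, where 0.369% of all tested miRNAs were called.

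The day 4 change was set against the position along the intron. For the 37 tested rows with 1 hairpin, all in Sfmbt2, Spearman's rho between the start of the hairpin and the male log2 change was -0.17, and over the other stages and the female line against day 0 it lay between -0.26 and -0.15. This is a description across rows that share libraries and, in part, reads. Some of these rows keep a fixed ratio to rows with several hairpins, as miR-467b-5p does to miR-467a-5p. The position of such a row need not be the source of its reads. No row was placed between 14.585 and 39.058 kb from the first hairpin. Neighbours differed: miR-669f-3p and miR-669e-3p, whose hairpins start 0.566 and 0.832 kb into the cluster, changed by -2.97 (SE 0.48) and -1.43 (SE 0.51). Of these, miR-669e-3p was chosen here after its value was seen.

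**Figure D5:**
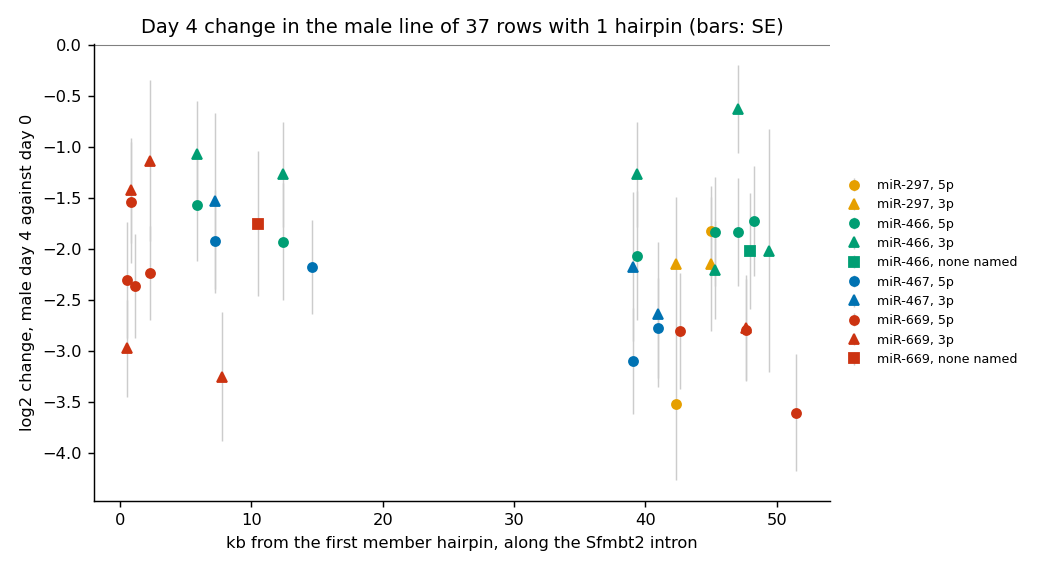
Log2 change at male day 4 against day 0 (y axis, bars for the SE) against the distance in kb from the start of the first member hairpin (x axis) for the 37 tested rows with 1 hairpin, coloured by family, with circles for 5p, triangles for 3p and squares where no arm is named. All values lie below 0, from -0.63 for miR-466n-3p to -3.60 for miR-669h-5p. No plotted row lies between 14.585 kb (miR-467b-5p) and 39.058 kb (miR-467e-3p and miR-467e-5p).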

How the data were processed

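The values deposited by the authors are raw counts per miRNA and library, 1 table per line, and normalized signal values, which the ratios of both tables show to be counts over a size factor per library. CASAVA 1.8.2, DESeq2, mm10 and GRCm38 stand in the submitters' processing notes, and for the aligner and annotation the entry is: not given in the sources used here. Both lines' counts were joined over shared names and tested with edgeR 4.0.16 (R 4.3.3): quasi-likelihood F tests on 20 libraries, 1 coefficient per group, TMM scaling, filterByExpr (813 miRNAs, 99.997% of counts), Benjamini-Hochberg adjustment per contrast at 0.05. The fit had 10 residual degrees of freedom and was checked on simulated data. The simulated counts were independent, with a common dispersion for all rows. They lacked the fixed-ratio rows and the correlation within stages of these data, so the check does not cover those. SE is the log2 change over the root of F. DESeq2 1.42.0, other scalings and filters, a replicate block and left-out libraries were alternatives. CPM carry TMM factors (0.551 to 1.43), while percentages use plain totals. A count of 0 allows 0.166 to 0.422 CPM per library (3 counts).

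Experiment numbers, from the labels, pair the samples: within a stage, deviations correlated across lines with r from 0.13 to 0.554 over miRNAs. Within a line, across stages, the correlation was weaker, with a median r of 0.0767. Named rows were the 3 most abundant of each family and, among called rows of at least 10 CPM whose groups do not overlap, the 5 largest rises and falls at days 27 to 30, and 3 at day 4, between lines and in the interaction. Members, lists and contrasts were chosen with earlier results of these data known. Family sums were described, not tested.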

Additional observations from a re-analysis of the deposited data

How the results depend on the processing

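The fall of the families in the male line at day 4 was called for 34 to 50 rows under the alternatives that keep all libraries (49 with the replicate block, 50 of the 72 tested without a filter on low counts), except that it was 29 of the 31 tested at a mean of at least 10 CPM, and for 23 to 45 when 1 library was left out. The other counts were small and moved with the choices, and the causes were not tested. With RLE scaling the count was 4 at female day 4, 1 at male days 19 to 23 and 10 between lines at day 4. With plain library totals it was 1, 0 and 1 at female day 10, days 19 to 23 and days 27 to 30, and 0, 1 and 0 at the same male stages, with 0 between lines at day 4 and 2 for male day 10 against day 4. Without a filter on low counts it was 4 at female day 4 and 10 between lines at day 4. With a mean of at least 10 CPM, fewer rows are tested, and the counts were 5, 2, 1 and 1 at the female stages, 2, 1 and 4 at male day 10, days 19 to 23 and days 27 to 30, and 0 between lines at day 4. DESeq2 gave 5 at female day 4, 7 at female days 27 to 30, 1 at male days 19 to 23 and 24 between lines at day 4. With each line fitted alone there were 4 at female day 4 and 15 for male day 10 against day 4. The replicate block gave 4 at female day 4 and 13 between lines at day 4, and it changed no other count by over 1.5 times. The block was a single coefficient for the experiment, shared by all stages and both lines. It therefore cannot take up a difference between experiments that varies by stage.

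Leaving out 1 library of the groups compared, the counts ranged from 1 to 4, 0 to 6, 0 to 1 and 0 to 8 at the 4 female stages, and from 23 to 45, 0 to 2, 0 to 1 and 0 to 7 at the male ones. They were 0 throughout between lines at day 4, and 0 to 17 for male day 10 against day 4.

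Plain library totals moved the male log2 ratios of the sums at days 27 to 30 from -0.62 to 0.047 (miR-297), 0.04 to 0.71 (miR-466), -1.16 to -0.50 (miR-467) and -0.93 to -0.26 (miR-669). The other alternatives that keep all libraries moved no sum by more than its SD. Leaving out libraries, the ratios at days 27 to 30 ranged, for miR-297, miR-466, miR-467 and miR-669, from -0.80 to 0.05, -0.87 to 0.22, -1.43 to -0.25 and -1.15 to -0.21 (female) and from -0.85 to -0.42, -0.28 to 0.44, -1.36 to -0.99 and -1.12 to -0.76 (male). Counting identical mature sequences once was not run, since sequences were matched for only 6 members.

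None of the named rows changed sign under these alternatives in a comparison where it was called, while some uncalled abundant rows did. With plain library totals, the log2 changes at female days 27 to 30 were 0.18 (miR-297a-3p), 0.039 (miR-297a-5p), 0.20 (miR-297b-5p), 0.21 (miR-466b-3p), 0.37 (miR-466b-5p), 0.20 (miR-466c-3p) and 0.21 (miR-669l-5p), and at male days 27 to 30 they were 0.16 (miR-297a-3p), 0.058 (miR-297a-5p), 0.62 (miR-466b-5p), 0.46 (miR-467c-5p) and 0.20 (miR-669l-5p). For female day 4, miR-466b-3p and miR-466c-3p both gave -0.20 with plain library totals, -0.13 with RLE scaling and with DESeq2, -0.16 without a filter on low counts, -0.30 with a mean of at least 10 CPM and -0.34 with each line fitted alone, and the replicate block gave -0.00174 and -0.00154. miR-466b-5p at male days 27 to 30 gave 0.031 with RLE scaling and with DESeq2, 0.032 without a filter and 0.014 with a mean of at least 10 CPM, which gave 0.00201 at female days 27 to 30. miR-467c-5p at female days 27 to 30 gave -0.0549 with RLE scaling and with DESeq2, -0.00626 without a filter and -0.023 with the line fitted alone. Leaving out libraries, the ranges that crossed 0 at female days 27 to 30 were -0.81 to 0.068 (miR-297a-3p), -1.08 to 0.0052 (miR-297a-5p), -0.73 to 0.045 (miR-297b-5p), -0.98 to 0.15 (miR-466b-3p), -0.99 to 0.15 (miR-466c-3p), -0.77 to 0.34 (miR-466b-5p), -0.73 to 0.48 (miR-467c-5p) and -0.77 to 0.11 (miR-669l-5p). At male days 27 to 30 they were -0.17 to 0.56 (miR-466b-3p), -0.17 to 0.55 (miR-466c-3p), -0.50 to 0.35 (miR-466b-5p) and -0.59 to 0.089 (miR-467c-5p), and at female day 4 -0.56 to 0.13 (miR-466b-3p and miR-466c-3p) and -0.58 to 0.063 (miR-467c-5p).

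The 21 rows left out of the tests had at most 96 counts each over the 20 libraries. With 2 libraries per group, leaving out 1 leaves a lone sample, whose spread is assumed to match that of other groups.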
